A study of Homo sapiens with 6 samples.

Results

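The genes described here make and load the peptides that cells show on MHC class I molecules. They are the immunoproteasome subunits PSMB8, PSMB9 and PSMB10, the proteasome cap subunit PSME1, the peptide transporter genes TAP1 and TAP2, the loading factor TAPBP, and the class I chains B2M, HLA-C and HLA-E. They were chosen as the genes of this pathway by name, and their probe sets were taken from the array's annotation. The 10 genes had 22 of the 54675 probe sets, and all 10 were among the 10370 genes tested.

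Levels were measured on Affymetrix human arrays in HT-29, a human colon adenocarcinoma cell line. The 3 cell variants were BR100, BR200 and wild type, with 2 arrays each. One array of a variant was labelled with the 3' IVT Express kit from 100 ng of total RNA, and the other with the One-Cycle kit from 3 ug. In the text the Express value stands first and the One-Cycle value second. The labels describe the resistant cells as HT-29 grown in bortezomib, a proteasome inhibitor, with doses stepped up between 20 and 300 nM during 7 months. Clones then came from 2 rounds of limiting dilution with 100 or 300 nM of the drug kept on the cells for 4 further months, so each resistant variant is a clonal isolate. That text is attached to the wild type arrays as well, and it states neither the cloning dose of BR200 nor whether drug was on any cells at harvest. Nothing in the labels says that a variant's arrays came from separate cultures, so p-values measure only the spread between these arrays.

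The standard proteasome cuts proteins with 3 kinds of catalytic subunit, and interferon gamma induces a replacement for each, which together form the immunoproteasome. PSMB9 takes the place of PSMB6, PSMB10 that of PSMB7, and PSMB8 that of PSMB5, the subunit that bortezomib blocks most strongly. Peptides are carried into the endoplasmic reticulum by the transporter made of TAP1 and TAP2, bridged by TAPBP (tapasin) to empty class I molecules, and loaded onto a heavy chain such as HLA-C paired with B2M. The peptide-bearing molecules are read by cytotoxic T cells and, for HLA-C and HLA-E, by natural killer cells.

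Many of these genes answer to interferon, so the starts of the genes were searched for the paired GAAA letters that interferon regulatory factors are known to bind, defined here as 2 copies of GAAA set apart by any 2 bases on either strand. RefSeq windows of GRCh38.p14, from 250 bases before to 50 bases after an annotated start, matched 9 of the 10 genes, all but HLA-E, with 11 windows in all. The paired GAAA was present in 7 of the 9 genes, or 7 of their 11 windows, and in 3.57% of the 35116 windows of all genes. PSMB9 and HLA-C held none in their windows, which says only that these letters are not there. The stretches below are shown because they carry the match, which is in capitals and reads as TTTC where the copies lie on the opposite strand.

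PSMB8, chr6:32844032-32844061, minus strand: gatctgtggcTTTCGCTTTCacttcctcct
PSMB10, chr16:67936852-67936881, minus strand: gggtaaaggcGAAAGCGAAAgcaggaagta
PSME1, chr14:24136189-24136218, plus strand: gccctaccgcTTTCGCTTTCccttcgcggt
TAP1, chr6:32853813-32853848, minus strand: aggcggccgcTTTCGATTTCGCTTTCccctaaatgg
TAP2, chr6:32838778-32838807, minus strand: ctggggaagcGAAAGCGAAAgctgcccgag
TAPBP, chr6:33314073-33314108, minus strand: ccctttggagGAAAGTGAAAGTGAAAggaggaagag
B2M, chr15:44711363-44711398, plus strand: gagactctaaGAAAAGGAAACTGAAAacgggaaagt

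The match began 4 bases before the annotated start in PSMB8 (the other of its 2 windows held none), 20 bases before it in TAPBP, 21 in PSMB10, 58 in TAP2, 134 in TAP1 and 144 in B2M, and 5 bases after it in PSME1. TAP1, TAPBP and B2M each held 3 copies of GAAA in a row, which count as 2 overlapping matches. Other letters known from class I promoters were also searched on both strands. CCAAT (34.6% of all windows hold it) was found 4 times in HLA-C and once each in PSMB9, TAP1 and B2M. TGACG (24.6%) was found once each in PSMB8, PSMB9, TAP2, B2M and HLA-C. A match to the NF-kappaB motif, present in 11.3% of all windows, was found in TAP1, TAPBP, B2M and HLA-C. The gamma-activated letters TTCNNNGAA (7.66% of all windows) were found in 1 window each of PSMB8 and TAP1.

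Between 10063 and 10193 genes reached log2 4 on an array, and the arrays of a variant correlated at 0.983 to 0.985 between kits, across genes. The gap between the 3' and 5' probe sets of ACTB, which widens with RNA breakdown and differs between kits, averaged 2.44 in BR100, 2.50 in BR200 and 3.61 in wild type on the log2 scale. The part of that gap in the results was not tested. The general epithelial markers EPCAM, KRT8, KRT18 and KRT19 stood at log2 13.56 or above on every array, while the colon markers CDX1, CDX2 and GPA33 were under log2 3 on all 6. LGALS4, a galectin of the colon epithelium, read 7.63 and 6.90 in BR100, 7.94 and 7.46 in BR200, and 13.48 and 13.04 in wild type. VIL1, CEACAM5, KRT20 and CDH1 were the other markers that fell in both resistant variants. Over the 12 colon epithelial markers, 0 rose and 5 of 9 tested fell in each resistant variant against wild type. Of all genes tested, 36.7% rose and 31.8% fell in BR100, and 35.4% rose and 31.2% fell in BR200. The summed log2 level of the 12 markers was 112.6 to 113.7 in BR100, 113.6 to 115.2 in BR200 and 124.2 to 125.5 in wild type. Of 8 leukocyte markers measured, the defining PTPRC, CD3E, MS4A1, NKG7, ITGAM and FCER1G were under log2 3 on every array. The other 2 were CD14, between log2 5.33 and 6.76, and LYZ, a lysozyme that gut epithelium also makes, which stood between 14.34 and 14.84 and makes up much of the sum. The summed leukocyte level was 33.76 to 33.96 in BR100, 34.54 to 34.83 in BR200 and 33.37 to 33.42 in wild type, and its highest values in BR200 came with CD14, which was 1.05 higher than in wild type (limma, adjusted p = 0.0013). Fibroblast markers (6 of 7) and endothelial markers (5 of 6) were under log2 3 on every array.

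Against wild type, BR100 had lower TAP1, TAP2, HLA-C, HLA-E, B2M and PSMB8, and higher PSME1, PSMB10 and TAPBP. Of the 10 genes, 3 rose and 6 fell at an adjusted p under 0.05 from limma over all genes tested, where 36.7% of all genes rose and 31.8% fell. The median log2 change of the 10 genes was -0.43, beside 0.04 over all genes. The arrays of BR100 and wild type did not overlap for 6 of the 10 genes, as for 72.1% of all genes. Most genes tested were called in this comparison, so a call alone sets no gene apart. In bulk RNA, fewer cells with a transcript and less of it per cell cannot be told apart.

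BR200 differed from wild type in another way. PSMB9, PSMB10, PSMB8, PSME1 and TAPBP rose, TAP2, TAP1 and HLA-E fell, and neither B2M nor HLA-C passed the test. That makes 5 genes higher and 3 lower, with 35.4% of all genes higher and 31.2% lower, and a median change of 0.42 beside 0.04 over all genes. Arrays did not overlap for 8 of the 10 genes, as for 69.5% of all genes.

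Between the resistant variants, 8 of the 10 genes were higher in BR200 than in BR100 and 0 were lower, where 6.39% of all genes were higher and 4.23% lower. All 10 fitted changes lay above 0, as did 47% of those of all genes, and the median change was 0.82 beside -0.01 over all genes. The arrays did not overlap for 9 of the 10 genes, all but PSMB10, as for 37.1% of all genes. The direction was the same within each labelling kit for all 10. These calls rested on having all 6 arrays. Leaving out either array of BR100 or of BR200 lost every call, and leaving out either wild type array lost all but that of PSMB9. Most calls over all genes were lost as well each time. PSMB9 was also the 1 gene called when BR200 and BR100 were fitted without wild type. Its call was lost with no filter on low values (limma, adjusted p = 0.066), where of the 10 genes only PSMB10 and B2M were called. With the kit left out of the model the calls for PSMB8, PSMB10 and TAPBP were lost in all 3 comparisons, that for B2M in BR100, those for TAP1 and HLA-E in BR200, and those for TAP1, HLA-C and HLA-E between BR200 and BR100. Both comparisons against wild type share the wild type arrays, so their values are set side by side without a test of likeness.

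**Figure D1:**
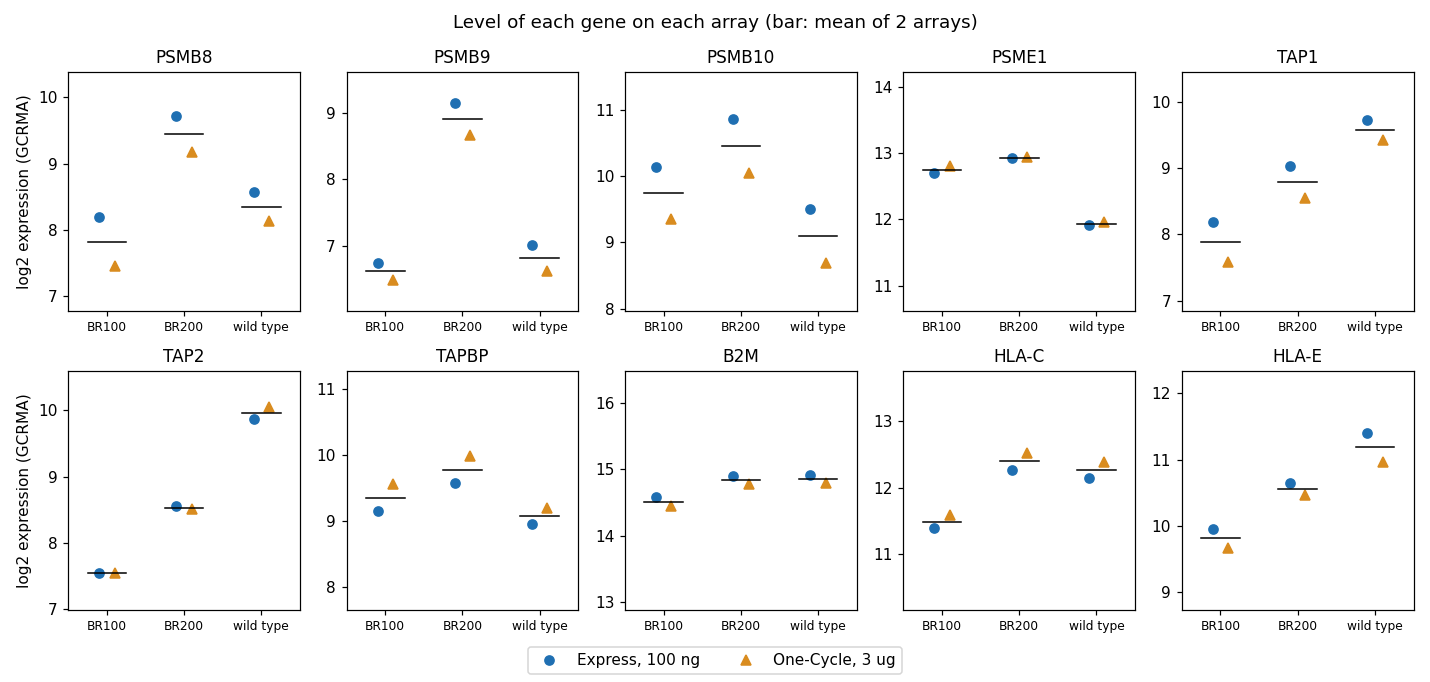
Level of each of the 10 genes on each array as deposited log2 expression, with BR100, BR200 and wild type from left to right, circles for the Express kit, triangles for the One-Cycle kit and a bar for the mean of 2 arrays. Each panel has its own position on the axis but the same span; PSMB9 stands apart in BR200 (9.16 and 8.67), and TAP2 falls into 3 separate levels.

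PSMB9, read by probe set 204279_at on chromosome 6, had the largest change of the 3 immunoproteasome subunits in BR200 against wild type and the smallest in BR100. Its log2 level was 6.74 and 6.49 in BR100, 9.16 and 8.67 in BR200, and 7.01 and 6.62 in wild type. Both BR200 arrays stood well above all others, while the BR100 and wild type arrays overlapped. PSMB9 was 4.28-fold higher in BR200 than in wild type, a log2 change of 2.10 (SE 0.086, limma, adjusted p = 0.0002), and 2.30 higher than in BR100 (adjusted p = 0.0034). In BR100 the change was -0.20 (adjusted p = 0.10), with a 95% interval from -0.43 to 0.03. It became a call, at an adjusted p of 0.043, once each array was centred on its median.

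PSMB8, also on chromosome 6, moved in opposite directions in the resistant variants. Probe set 209040_s_at read 8.19 and 7.45 in BR100, 9.72 and 9.18 in BR200, and 8.57 and 8.13 in wild type. BR200 lay above wild type by 1.10 (SE 0.097, limma, adjusted p = 0.0011) and above BR100 by 1.62 (adjusted p = 0.0064). The BR100 and wild type arrays overlapped across kits, and within each kit BR100 was lower, by -0.38 with Express and -0.68 with One-Cycle. The fall in BR100 was -0.53 (adjusted p = 0.0087), and it was not called without the One-Cycle array of BR100 or that of wild type, or without a filter on low values.

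PSMB10, on chromosome 16, rose in both resistant variants. Probe set 202659_at read 10.14 and 9.35 in BR100, 10.85 and 10.04 in BR200, and 9.50 and 8.69 in wild type. The kits differed by 0.80 (Express minus One-Cycle), the widest gap among the 10 genes and larger than the change in BR100, so the BR100 arrays overlapped those of wild type and those of BR200. Within a kit the order was the same in both: BR200 highest, BR100 next, wild type lowest. The log2 change was 0.65 in BR100 (SE 0.064, limma, adjusted p = 0.0013) and 1.35 in BR200 (adjusted p = 0.00026), and BR200 was 0.70 above BR100 (adjusted p = 0.014). With the kit left out of the model none of these calls held, with adjusted p up to 0.68.

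The constitutive subunits that these replace gave a different picture. PSMB5 rose by 1.69 in BR100 and by 1.69 in BR200, PSMB6 by 1.19 in BR100 and 1.23 in BR200, and PSMB7 by 0.69 in BR100 and 0.81 in BR200, each a log2 change against wild type with limma's adjusted p at or under 0.0016. None of the 3 was called between BR200 and BR100, where the changes were 0.01 for PSMB5, 0.04 for PSMB6 and 0.12 for PSMB7. In BR100, then, PSMB5 and PSMB6 rose while PSMB8 fell and PSMB9 did not pass the test, and PSMB10 and PSMB7 rose by similar amounts. In BR200 both members of each pair rose. The changes within a pair were not tested against each other, and levels of different probe sets cannot be compared.

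**Figure D2:**
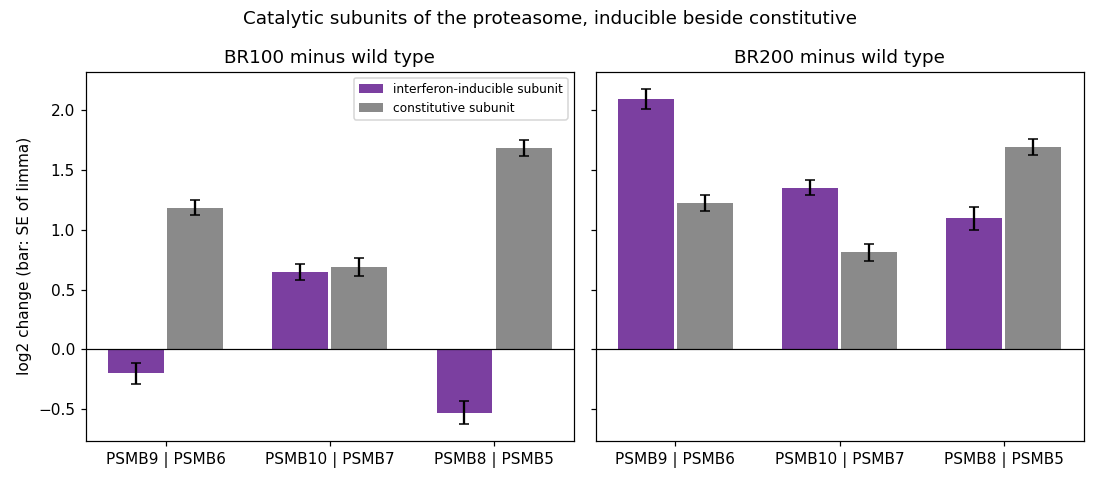
Log2 change against wild type of each interferon-inducible catalytic subunit (purple) beside the constitutive subunit it replaces (grey), in BR100 on the left and BR200 on the right, with limma's SE as error bars. In BR100 PSMB9 and PSMB8 lie below 0 (-0.20 and -0.53) beside PSMB6 and PSMB5 at 1.19 and 1.69, and in BR200 all 6 lie above 0.

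PSME1, one of the chains of the cap that opens the proteasome and is induced by interferon gamma rose in both variants. Probe set 200814_at, on chromosome 14, read 12.70 and 12.80 in BR100, 12.92 and 12.94 in BR200, and 11.91 and 11.96 in wild type. Both resistant variants lay clear of wild type, with changes of 0.81 in BR100 (SE 0.067, limma, adjusted p = 0.00079) and 0.99 in BR200 (adjusted p = 0.00054). BR200 exceeded BR100 by 0.18 (adjusted p = 0.16, 95% interval from -0.00028 to 0.36). Its partner PSME2 was not analysed here, because the probe set that names it also names a microRNA gene. PSME3, which forms a nuclear cap of its own, rose by 1.22 in BR100 and by 0.97 in BR200.

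Across the 11 tested partners of these subunits (constitutive catalytic and structural subunits, assembly chaperones and PSME3), 10 rose in BR100 and 11 in BR200 against wild type, and 0 fell. Over all genes, 36.7% rose in BR100 and 35.4% in BR200. Median changes of the 11 were 0.69 in BR100 and 0.73 in BR200. The assembly factor PSMG1 rose by 1.53 in BR100 and 1.36 in BR200, and POMP, the chaperone that the immunoproteasome needs to mature, by 0.38 in BR100 and 0.39 in BR200. Between BR200 and BR100 limma called 0 of the 11 in either direction, where 6.39% of all genes were higher and 4.23% lower. Their median change there was -0.01. The smallest adjusted p among them there was 0.098 (PSMG3, 0.23). The difference between this list and the 10 presentation genes was not tested.

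The transporter genes fell in both resistant variants, and further in BR100. TAP2, read by probe set 225973_at, had 7.54 and 7.54 in BR100, 8.56 and 8.51 in BR200, and 9.87 and 10.04 in wild type. The 3 variants did not overlap. Both BR100 arrays gave exactly 7.5382, an SD of 0, although their kits differed. Whether that value is the lowest this probe set can give was not tested, so the size of changes that involve BR100 is uncertain. TAP2 was 5.34-fold lower in BR100 than in wild type, a change of -2.42 (SE 0.086, limma, adjusted p = 0.00015), and -1.42 in BR200 (adjusted p = 0.00042). BR200 was 0.99 above BR100 (adjusted p = 0.013).

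TAP2 had 4 probe sets, and they did not agree in size. The dimmer 204769_s_at gave -0.78 in BR100 and -0.48 in BR200, of which only the first was called (adjusted p = 0.028 and 0.10 over probe sets). The noisy 204770_at ran between 2.31 and 6.41 and was called in no comparison, and 208428_at stayed at the arrays' lowest value of 2.23 throughout. Averaging the 4 gave TAP2 changes of -1.09 in BR100 and -0.83 in BR200, both still called, and 0.26 between BR200 and BR100, which was not (adjusted p = 0.24).

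TAP1, with the single probe set 202307_s_at, had 8.19 and 7.58 in BR100, 9.04 and 8.54 in BR200, and 9.72 and 9.42 in wild type. No 2 variants overlapped. It was 3.21-fold lower in BR100 than in wild type, a change of -1.68 (SE 0.098, limma, adjusted p = 0.00035), and -0.78 in BR200 (adjusted p = 0.0028). BR200 was 0.90 above BR100 (adjusted p = 0.019).

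TAP1 and PSMB9 lie head to head on chromosome 6 with 487 bases between the annotated genes, and in BR200 they moved in opposite directions against wild type, by -0.78 for TAP1 and 2.10 for PSMB9. The 250 bases before each start are shown because this shared stretch lies between genes with opposite changes. The paired GAAA is in capitals, and the PSMB9 side, in which none was found, holds TGACG once. The windows of the genes overlap by 13 bases at their far ends, and the CCAAT found once in each window is the same site in that overlap.

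TAP1, GRCh38.p14 chr6:32853705-32853954, minus strand: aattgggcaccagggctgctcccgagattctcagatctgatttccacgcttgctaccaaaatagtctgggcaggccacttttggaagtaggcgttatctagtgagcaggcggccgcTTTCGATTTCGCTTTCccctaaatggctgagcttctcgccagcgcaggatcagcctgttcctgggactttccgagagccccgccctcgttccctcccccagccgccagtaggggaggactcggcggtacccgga
PSMB9, GRCh38.p14 chr6:32853942-32854191, plus strand: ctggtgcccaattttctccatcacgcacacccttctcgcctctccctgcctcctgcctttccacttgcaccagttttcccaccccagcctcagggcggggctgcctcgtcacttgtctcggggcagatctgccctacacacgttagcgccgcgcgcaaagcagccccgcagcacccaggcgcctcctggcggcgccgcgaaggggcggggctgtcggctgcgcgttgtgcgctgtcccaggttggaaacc

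TAP2, PSMB8, TAP1 and PSMB9 form a run of 4 genes in the class II region. Of the genes that flank the run, HLA-DOB and HLA-DQB2 read 2.23 or 2.24 on every array. HLA-DMB read 5.02 and 5.37 in BR100, 4.75 and 4.75 in BR200, and 4.98 and 4.98 in wild type, and was called in no comparison. HLA-DMA rose by 0.88 in BR200 against wild type (limma, adjusted p = 0.0098) and was not called in BR100 (0.20). BRD2 fell by 0.34 in BR200 (adjusted p = 0.011) and was not called in BR100 (-0.20, adjusted p = 0.051).

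TAPBP rose in both variants by modest amounts. Probe set 208829_at, on chromosome 6, read 9.15 and 9.55 in BR100, 9.57 and 9.98 in BR200, and 8.95 and 9.20 in wild type. BR200 lay above wild type by 0.70 (SE 0.077, limma, adjusted p = 0.002) and above BR100 by 0.42 (adjusted p = 0.046). The BR100 change was 0.28 (adjusted p = 0.031), its arrays overlapped those of wild type, and the call was lost without either array of BR100, either of BR200 or the One-Cycle array of wild type. The call between BR200 and BR100 was lost when the probe sets of the gene were averaged (0.11, adjusted p = 0.61). It was also absent when 208829_at was fitted among all probe sets (limma, adjusted p = 0.074). The dimmer 1555565_s_at gave 0.33 in BR100, 0.74 in BR200 and 0.41 between them, and was called in no comparison. Probe set 210294_at was too low to be tested, with 3.09 and 3.46 in BR100, 2.81 and 2.75 in BR200, and 2.78 and 2.49 in wild type. TAPBPL, a relative of tapasin that edits peptides, rose by 1.12 in BR200 against wild type and by 0.93 against BR100 (adjusted p = 0.0051 and 0.047), and its change in BR100 was 0.20 (adjusted p = 0.35).

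B2M, the light chain common to class I molecules, had 14.58 and 14.45 in BR100, 14.90 and 14.78 in BR200, and 14.92 and 14.79 in wild type by probe set 216231_s_at. BR200 and wild type overlapped, and both BR100 arrays lay below them. The fall in BR100 was -0.34 (SE 0.064, limma, adjusted p = 0.0094), and it was not called without either BR100 array. The change in BR200 was -0.01 (adjusted p = 0.88, 95% interval from -0.18 to 0.16), and BR200 exceeded BR100 by 0.33 (adjusted p = 0.051).

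The other B2M probe sets did not all give the same size. Probe set 201891_s_at gave -0.39 in BR100, -0.09 in BR200 and 0.30 between them. Probe set 232311_at read 5.01 and 2.69 in BR100, 7.39 and 5.13 in BR200, and 8.42 and 6.64 in wild type, with changes of -3.68 in BR100, -1.27 in BR200 and 2.41 between them. Its One-Cycle value in BR100 was near background (under log2 4), so the sizes that involve BR100 depend on the background estimate. It kept the order of the variants and was called in all 3 comparisons, at sizes far beyond those of the brighter pair. Averaging all 3 gave B2M a called change of -0.46 in BR200 against wild type (adjusted p = 0.0083) and of 1.01 between BR200 and BR100 (adjusted p = 0.010).

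HLA-C, a classical heavy chain, fell in BR100 and did not pass the test in BR200. Probe set 214459_x_at read 11.39 and 11.58 in BR100, 12.27 and 12.53 in BR200, and 12.14 and 12.38 in wild type. BR200 and wild type overlapped, while both BR100 arrays lay below. The change in BR100 was -0.78 (SE 0.066, limma, adjusted p = 0.00085) and in BR200 0.14 (adjusted p = 0.13, 95% interval from -0.04 to 0.32), and BR200 was 0.92 above BR100 (adjusted p = 0.0087). Its 4 probe sets gave -0.57 to -0.96 in BR100, 0.06 to 0.22 in BR200 and 0.62 to 1.14 between them.

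HLA-E, the chain that presents leader peptides of other class I molecules to natural killer cells, fell in both variants. Probe set 200905_x_at read 9.96 and 9.67 in BR100, 10.65 and 10.46 in BR200, and 11.40 and 10.97 in wild type, with no overlap. The change was -1.37 in BR100 (SE 0.087, limma, adjusted p = 0.00042) and -0.63 in BR200 (adjusted p = 0.0038), and BR200 was 0.74 above BR100 (adjusted p = 0.022). Probe set 200904_at gave larger falls, -2.20 in BR100 and -1.41 in BR200, and 217456_x_at smaller ones, -0.92 in BR100 and -0.29 in BR200.

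None of the 22 probe sets of these genes names more than 1 gene in the annotation. The 6 HLA probe sets that do name several genes all list class II genes of the DR and DQ families, and 0 of them lists HLA-C or HLA-E. Still, 6 of the 7 probe sets of HLA-C and HLA-E end in _x_at, the maker's mark for probes that may also bind other transcripts (whether class I chains share signal here was not tested). Another 6 of the 22 end in _s_at, a mark for probes shared by several transcripts. Taken on their own, 17 of the 20 probe sets that passed the filter were called in BR100 against wild type (3 higher, 14 lower), where 61.4% of all probe sets were. In BR200 against wild type 11 were called (5 higher, 6 lower), where 57.4% of all probe sets were. Between BR200 and BR100 13 were called, all higher in BR200, where 5.98% of all probe sets were.

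**Figure D3:**
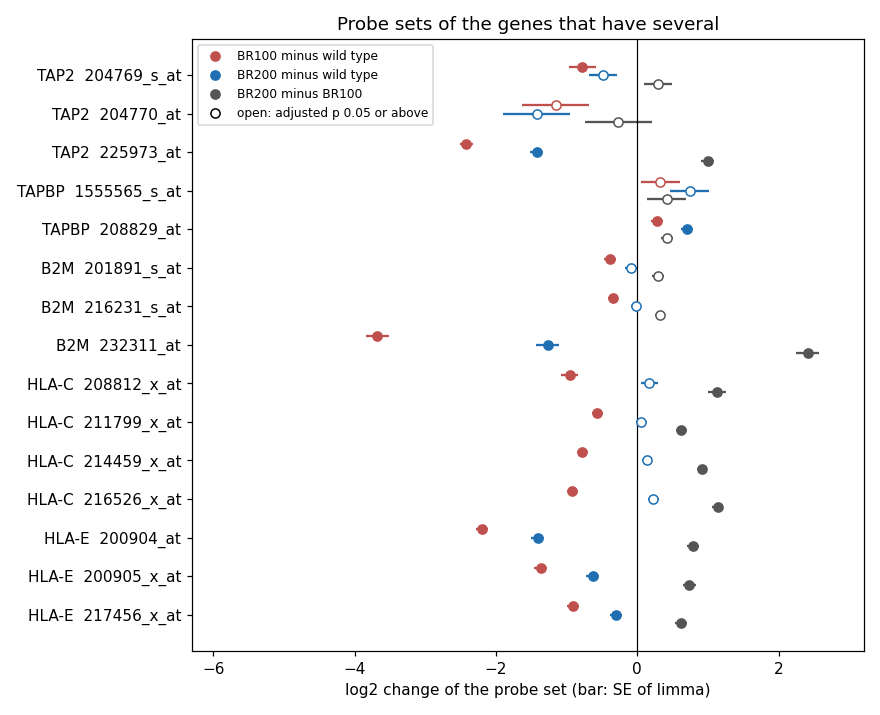
Log2 change of each tested probe set of the 5 genes that have more than 1, for BR100 minus wild type (red), BR200 minus wild type (blue) and BR200 minus BR100 (grey), with limma's SE as bars and open circles where the adjusted p over all probe sets was 0.05 or above. The HLA-C probe sets lie close together, while 232311_at of B2M (-3.68, -1.27 and 2.41) stands far from the other B2M probe sets.

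**Figure D4:**
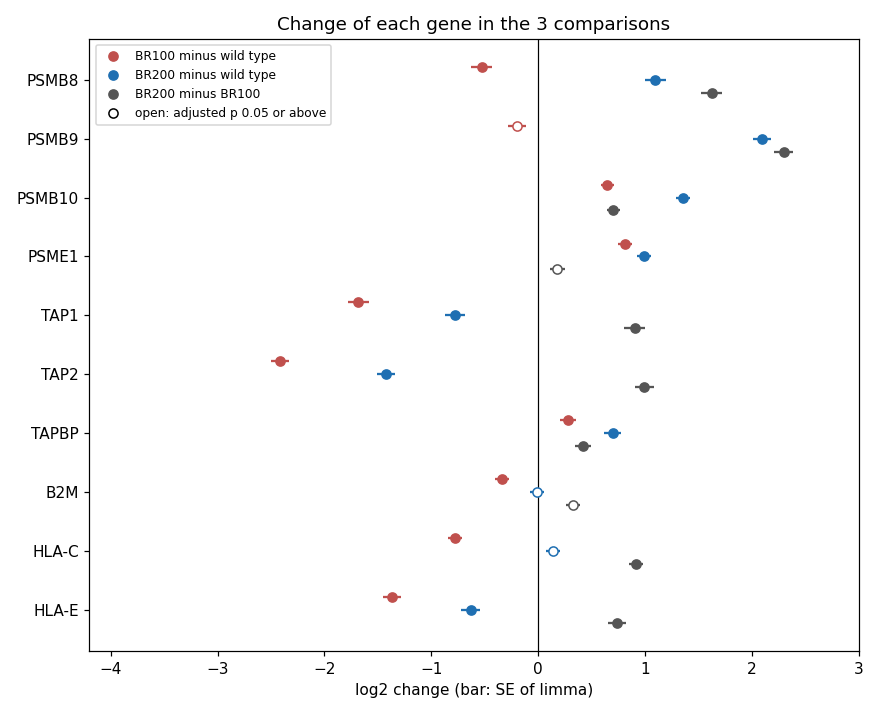
Log2 change of each of the 10 genes in BR100 minus wild type (red), BR200 minus wild type (blue) and BR200 minus BR100 (grey), with limma's SE as bars and open circles where the adjusted p was 0.05 or above. All 10 grey points lie above 0, from 0.18 for PSME1 to 2.30 for PSMB9, while the red points run from -2.42 for TAP2 to 0.81 for PSME1.

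The other class I heavy chains tested also had their lowest mean level in BR100. HLA-B read 10.42 and 11.06 in BR100, 11.27 and 11.81 in BR200, and 11.23 and 11.64 in wild type, a change of -0.70 in BR100 (limma, adjusted p = 0.0024), 0.11 in BR200 (adjusted p = 0.33) and 0.80 between them (adjusted p = 0.018). All 4 chains tested (HLA-B, HLA-F, HLA-G and the pseudogene HLA-J) fell in BR100, where 31.8% of all genes fell. In BR200 against wild type 0 passed the test. There limma gave adjusted p from 0.11 to 0.37. HLA-F fell by 0.59 and HLA-G by 0.28 in BR100. HLA-B and HLA-F were higher in BR200 than in BR100, HLA-F by 0.45. These chains are alike in sequence, and signal of one on the probes of another cannot be told apart here.

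Peptide trimming genes showed no common direction. Of 10 tested, 5 rose and 2 fell in BR100, and 5 rose and 1 fell in BR200, with medians of 0.19 in BR100 and 0.20 in BR200. Over all genes 36.7% rose and 31.8% fell in BR100, and 35.4% rose and 31.2% fell in BR200. Between BR200 and BR100, 6.39% of all genes were higher and 4.23% lower. These shares also stand beside the list counts that follow. Bleomycin hydrolase (BLMH), a cytosolic peptidase, rose by 2.86 in BR100 and by 2.37 in BR200. Of the trimming enzymes of the endoplasmic reticulum, ERAP2 rose in both, by 0.63 in BR100 and 0.88 in BR200. ERAP1 rose in BR200 against wild type (0.37, limma, adjusted p = 0.012), with -0.15 in BR100 (adjusted p = 0.14), and was the 1 gene of the list called between BR200 and BR100 (0.51, adjusted p = 0.031).

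Among 14 genes of the endoplasmic reticulum that fold and load class I chains, 3 rose and 5 fell in BR100 and 3 rose and 7 fell in BR200. Calreticulin (CALR), a chaperone of the loading complex, rose by 0.58 in BR100 and 0.48 in BR200. Calnexin (CANX), which holds newly made heavy chains, fell by 0.55 in BR100 and 0.88 in BR200, and PDIA3, the oxidoreductase of the complex, by 0.62 in BR100 and 0.84 in BR200. SEC61A1, a channel subunit, fell by 1.18 in BR100 and 1.32 in BR200. Between BR200 and BR100 TAPBPL was the gene called higher and PDIA4 the gene called lower (-0.50).

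The class I-like genes that passed the filter, 7 of 12 measured, were all called against wild type, 4 up and 3 down in each variant. With 36.7% of all genes higher and 31.8% lower in BR100, and 35.4% and 31.2% in BR200, a call alone sets none of them apart. MICB, a stress ligand of natural killer cells, stood at 5.30 and 5.20 in BR100, 6.04 and 4.91 in BR200, and 2.94 and 2.90 in wild type. That is a rise of 2.33 in BR100 and 2.56 in BR200, in which wild type lay near background. Its relative MICA rose in both, with 8.84 and 8.55 in BR100, 8.63 and 8.37 in BR200, and 7.91 and 7.47 in wild type. ULBP2, another ligand of that receptor, fell by 1.32 in BR100 and 0.58 in BR200. FCGRT, the neonatal Fc receptor chain, which also pairs with B2M, fell by 1.67 in BR100 and 1.60 in BR200, and AZGP1, a secreted class I-like protein, by 4.09 in BR100 and 4.57 in BR200. AZGP1 read 3.47 and 4.14 in BR100, 3.17 and 3.49 in BR200, and 7.30 and 8.49 in wild type, so it was near background in BR200 and on 1 array of BR100, where the size of the change depends on the background estimate.

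Regulators of class I genes were split. Of 15 tested, 7 rose and 6 fell in BR100, 6 rose and 5 fell in BR200, and 3 were higher in BR200 than in BR100. IRF9, the DNA-binding part of the interferon-activated complex ISGF3, read 7.07 and 7.09 in BR100, 8.49 and 8.63 in BR200, and 9.82 and 10.36 in wild type, falls of 3.01 in BR100 and 1.53 in BR200, with BR200 1.48 above BR100 (limma, adjusted p = 0.017). IRF1, a factor that switches on TAP1 and PSMB9 in many cells, fell by 0.61 in BR100 (adjusted p = 0.0028), with -0.18 in BR200 (adjusted p = 0.10), and was 0.43 higher in BR200 than in BR100 (adjusted p = 0.045). RFX5, which binds class I and class II promoters, rose by 1.69 in BR100 and 1.86 in BR200, while its partner RFXAP fell by 1.39 in BR100 and 0.84 in BR200. NLRC5, the class I transactivator, read 2.25 and 2.25 in BR100, 2.41 and 2.25 in BR200, and 3.10 and 4.86 in wild type, too low to be tested.

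Interferon receptor and kinase genes were mostly lower. Of 9 tested, 0 rose and 6 fell in BR100, and 1 rose and 5 fell in BR200. JAK1 fell by 1.42 in BR100 and 1.29 in BR200, and IFNGR2 by 1.19 in BR100 and 0.92 in BR200. IFNGR1, the ligand-binding chain of the interferon gamma receptor, fell by 0.41 in BR100 (adjusted p = 0.0081 by limma), gave 0.01 in BR200 (adjusted p = 0.91), and was the gene called between BR200 and BR100, 0.42 higher in BR200.

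Interferon-stimulated genes outside antigen presentation were mostly lower in both resistant variants than in wild type. Of 23 tested, 22 fell in BR100 and 20 in BR200 against wild type, and 22 were higher in BR200 than in BR100, with median changes of -3.11 in BR100, -1.56 in BR200 and 1.75 between them. MX1, an antiviral GTPase, read 4.71 and 4.44 in BR100, 6.89 and 6.98 in BR200, and 10.56 and 10.52 in wild type. XAF1, an interferon-induced death-associated protein, fell, with changes of -7.29 in BR100 and -3.43 in BR200, and was near background in BR100. GBP1, a GTPase induced mainly by interferon gamma, fell by 2.35 in BR100 and rose by 0.77 in BR200, the directions seen in PSMB8. GBP2 rose in both, by 1.06 in BR100 and 1.50 in BR200.

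Class II presentation genes were nearly silent. Of 12 measured, 9 did not pass the filter, among them HLA-DRA and CD74, at no more than log2 2.43 on any array. CTSS, a protease that trims the class II invariant chain, fell by 1.44 in BR100, rose by 0.46 in BR200 (limma, adjusted p = 0.011) and was 1.90 higher in BR200 than in BR100.

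**Figure D5:**
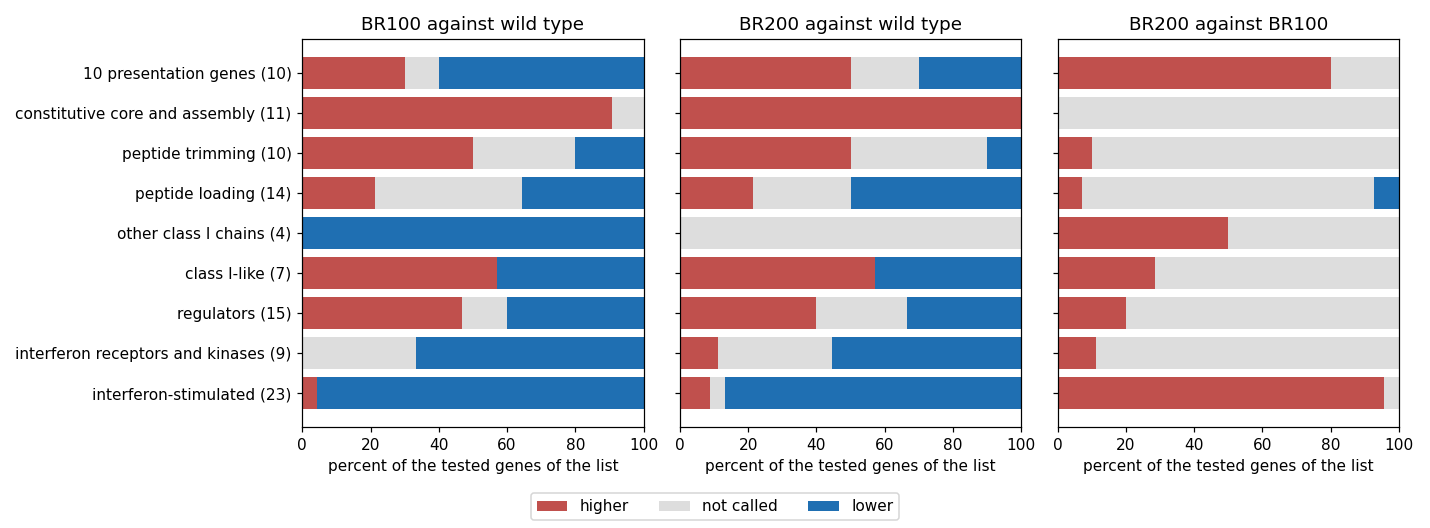
Percent of the tested genes of each list that were called higher (red), not called (light grey) or called lower (blue) in the 3 comparisons, with the number tested in brackets. For BR200 against BR100, 8 of the 10 presentation genes and 22 of 23 interferon-stimulated genes were called higher, and 0 of 11 core and assembly genes was called. Over all genes, 6.39% were called higher and 4.23% lower in that comparison.

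The tested genes whose profile over the 6 arrays lay nearest to a presentation gene, by Euclidean distance after each gene's mean was subtracted, are given as a description. Nearest to PSMB9 were COL8A1 at 0.42, MFAP2 at 0.43 and PKIG at 0.52. COL8A1 and PKIG lay near background in BR100 and wild type. Nearest to TAP1 were FBXO32 at 0.30, ZNF226 at 0.33 and C6orf132 at 0.34, and nearest to B2M were SCAF8 at 0.088, CUL9 at 0.11 and SAMTOR at 0.11.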

How the data were processed

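Log2 expression values, 1 per probe set and array, were used as the authors deposited them. They were made with GCRMA per the submitters' processing notes, with a version not given in the sources used here. Each of 19775 genes was read by its brightest probe set among the 41097 naming 1 gene. Genes reaching log2 4 on at least 2 of 6 arrays were kept (10370 kept, 9405 set aside), and 22375 probe sets passed likewise. One limma 3.58.1 model in R 4.3.3 held variant and labelling kit as a block, two-sided, with Benjamini-Hochberg adjustment over all genes and a call at an adjusted p under 0.05. It had 2 residual degrees of freedom plus 2.33 from eBayes. The kit is a batch named in the labels, and deviations of same-kit arrays correlated at 0.762 to 0.845 between variants. Named genes are the 10 genes, a set of pathway genes named whatever their values, up to 4 called genes a list and comparison with the largest change, and the 3 nearest profiles. POMP, PSMG3, MICA and GBP2 were chosen after their values were seen. The genes and lists were chosen with earlier results of these data known. Alternatives covered the block, probe set choice, filter, scaling, variance model, groups fitted and each array left out. The number of arrays and signal over background limit precision. Figures used matplotlib 3.10.9.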

Additional observations from a re-analysis of the deposited data

Results flagged for a closer look

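The effect in BR200 differed from the effect in BR100, both against wild type, for 8 of the 10 genes by limma's test of the difference, where 6.39% of all genes were higher and 4.23% lower. This is the same contrast as BR200 against BR100, not a further test. The differences, BR200 minus BR100 on the log2 scale, were 2.30 for PSMB9, 1.62 for PSMB8, 0.99 for TAP2, 0.92 for HLA-C, 0.90 for TAP1, 0.74 for HLA-E, 0.70 for PSMB10 and 0.42 for TAPBP. Adjusted p-values ran from 0.0034 for PSMB9 to 0.046 for TAPBP. PSMB8 moved in opposite directions against wild type, with -0.53 in BR100 and 1.10 in BR200. Leaving out any array of BR100 or BR200 lost every one of these calls, and leaving out either wild type array lost all but that of PSMB9. Most calls over all genes in this contrast were lost as well each time.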

How the results depend on the processing

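Across the alternatives no change of the 10 genes turned its direction, and changes tested again kept their side of the threshold 129 times for BR100 against wild type, 139 for BR200 against wild type and 72 for BR200 against BR100, lost the call 17, 5 and 69 times, and gained it 1, 3 and 6 times, in that order. With no replicate block, which leaves the kit out of the pairing, 5 members were called in BR100 and 3 in BR200 against wild type and 2 between BR200 and BR100, with 4387, 4100 and 112 genes and 7373, 6479 and 74 probe sets (with the block 9, 8 and 8 members, 7102, 6901 and 1102 genes, and 13747, 12840 and 1339 probe sets). The remaining moves of gene and member counts all concerned BR200 against BR100. With no filter 15 genes and 2 members, PSMB10 and B2M, were called. With no filter the probe set calls were 7217 and 6176 against wild type, and 0 between BR200 and BR100 (5816 at an unadjusted p under 0.05 by limma). With only the 2 groups fitted 61 genes and 1 member were called. Without probe sets ending in _x_at or _s_at 5 members of 7 tested were called. With trend and robust variance 2254 genes were called, and with a filter at log2 6, 2229 probe sets. Leaving out each array in turn gave 0 to 61 genes and 0 to 1 member there (1953 to 3273 genes at an unadjusted p under 0.05), 6 to 9 members in BR100 and 8 in BR200 against wild type. The cause of these moves was not tested. The 2 residual degrees of freedom limit every test.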
